A study of Mus musculus with 4 samples.

Results

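NK and ILC1 cells, the natural killer cells and group 1 innate lymphoid cells of the liver, made up 107 of the 25861 cells that were kept from liver nonparenchymal cell suspensions of 4 mice. They numbered 46 cells in the 2 CCl4 mice and 61 cells in the 2 corn oil mice. Single-cell RNA sequencing had been done on the BD Rhapsody platform, which captures single cells in microwells and tags each RNA molecule with a unique molecular identifier (UMI). A kept cell had at least 200 detected genes and at most 25% of its UMIs from mitochondrial genes. Members were then chosen by UMI counts of gate genes: a member had at least 2 UMIs summed over 5 genes, namely Ncr1, Klre1, Klra8 and Klrb1c, which encode NK receptors, and Eomes, which encodes a T-box transcription factor. It also had at most 1 UMI of Cd3e, Cd3d and Cd3g together, at most 2 UMIs of the Kupffer cell gene Clec4f, and at most 1 UMI each of Siglech and Cd79a. Less than 0.3% of its UMIs came from 6 endothelial genes (Kdr, Ptprb, Stab2, Oit3, Ehd3 and Egfl7). The levels of these 17 gate genes are therefore described below without a test.

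The CCl4 mice were wild-type males, 8 to 10 weeks old, that received intraperitoneal CCl4 diluted 1:9 in corn oil, 10 µl per g of body weight, 2 times per week over 5 weeks. Corn oil mice were wild-type males of that same age range that received corn oil alone on this schedule. All livers were taken 48 hours after the last dose, perfused with pronase and collagenase, depleted of hepatocytes at 50 × g and cleared of dead cells and erythrocytes on a density gradient. Each library came from 1 mouse, so every p-value below rests on 2 mice per group, and the CCl4 1 table had been produced in a pipeline run of its own, per the file headers, so that run and that mouse cannot be told apart.

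NK cells and ILC1 share the receptors NKp46 (Ncr1) and NK1.1 (Klrb1c) and both use the T-box factor T-bet. Conventional NK cells in mouse circulate through blood and depend on Eomes. Liver ILC1 stay in the sinusoids, lack Eomes and carry the collagen-binding integrin CD49a, the product of Itga1, with the chemokine receptor Cxcr6. Both kinds of cell make interferon gamma. NK cells kill target cells with perforin (Prf1) and granzymes (Gzma, Gzmb), whereas ILC1 are known for the death ligand TRAIL (Tnfsf10) and the interleukin 7 receptor (Il7r).

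The promoters shown here belong to genes that went with the Itga1 and Eomes division described below, and Eomes is itself a T-box factor, so a short T-box motif was marked in them. The 250 bases before each start are from RefSeq (GRCm38.p6), read 5′ to 3′ on the gene's strand, with TCACAC or its reverse complement GTGTGA in capitals. Xcl1 lies on the minus strand at chr1:164935523-164935772, Itga4 on the plus strand at chr2:79255176-79255425 and Gzma on the minus strand at chr13:113100982-113101231.
Xcl1: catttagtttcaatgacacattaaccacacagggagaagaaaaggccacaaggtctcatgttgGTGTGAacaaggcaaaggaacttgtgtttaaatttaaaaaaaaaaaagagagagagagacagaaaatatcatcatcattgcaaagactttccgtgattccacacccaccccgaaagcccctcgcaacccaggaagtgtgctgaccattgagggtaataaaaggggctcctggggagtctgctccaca
Itga4: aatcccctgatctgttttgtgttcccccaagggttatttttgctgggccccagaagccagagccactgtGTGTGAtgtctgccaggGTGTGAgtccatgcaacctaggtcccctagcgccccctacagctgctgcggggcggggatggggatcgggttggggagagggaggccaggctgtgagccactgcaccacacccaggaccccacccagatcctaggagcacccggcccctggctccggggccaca
Gzma: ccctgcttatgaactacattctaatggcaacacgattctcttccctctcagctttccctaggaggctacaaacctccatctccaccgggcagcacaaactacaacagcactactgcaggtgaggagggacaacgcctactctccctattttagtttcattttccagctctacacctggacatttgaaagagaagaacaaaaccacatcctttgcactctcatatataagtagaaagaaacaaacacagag
In windows of 300 bases, 250 before the start and 50 after it, 14.5% of all 32851 RefSeq promoters held the motif on either strand. Among the genes that passed the test below and had a window, it was present in 1 of 6 genes higher in Itga1-only cells (Xcl1) and in 1 of 6 genes higher in Eomes-only cells (Itga4, with 2 copies). A letter match is a description and shows no binding.

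The label was checked on genes that the rule did not use. Among 8 such genes of cytotoxic lymphocytes (Nkg7, Ccl5, Gzma, Gzmb, Klrd1, Klrk1, Il2rb and Txk), a median of 6 were detected per member in every library. Ccl5 was found in 96 of the 107 cells, Nkg7 in 95 and Klrk1, the receptor NKG2D, in 91. Gzmb was found in 72, Klrd1 in 70, Txk in 54 and Gzma in 40. Klrd1 was found in 19 of 21 and 20 of 25 members of the CCl4 mice, against 15 of 27 and 16 of 34 of the corn oil mice. Il2rb, a receptor chain for interleukins 2 and 15, was found in 18 of 21 and 22 of 25 members of the CCl4 mice and in all 27 and 34 of the corn oil mice. In 3 cells, 2 of CCl4 1 and 1 of CCl4 2, none of the 8 genes was detected, and all 3 held RNA of other cell types. The 5 genes of which the rule required UMIs had a median of 6 and 8 UMIs per member in the CCl4 mice, against 7 and 8 in the corn oil mice. Members had a median of 5276 and 4041 UMIs per cell in the CCl4 mice, against 2574 and 2610 in the corn oil mice. Libraries shared 333 cell barcodes, none of them held by a member.

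Some members held RNA of other liver cells, and more of the myeloid kind after CCl4. Genes of monocytes and macrophages took 0.756% and 0.771% of the members' UMIs in the CCl4 mice, against 0.184% and 0.104% in the corn oil mice, with 12 and 12 of the 12 genes of that list detected after CCl4 and 9 and 6 after corn oil. T cell genes took 0.0733% and 0.115% in the CCl4 mice and 0.279% and 0.183% in the corn oil mice. Of the 16 T cell genes, 8 and 11 were detected in the CCl4 mice and 14 and 11 in the corn oil mice, while Cd8b1 and Cd5 were at 0 in all 4 libraries. B cell genes took 0.00936% and 0.0121% in the CCl4 mice and 0.0222% and 0.0225% in the corn oil mice. Of the 10 B cell genes, 1 and 3 were detected in the CCl4 mice and 2 and 5 in the corn oil mice. Ebf1, Pax5 and Cd79a, the last of which the rule itself limited, were at 0 in every library. In all, 12 CCl4 members and 11 corn oil members exceeded a limit for RNA of another cell type, and the 84 remaining cells (15 and 19 in the CCl4 mice, 19 and 31 in the corn oil mice) were used to repeat the comparison of treatments. The limits were set after the data had been seen: at least 2 UMIs of Trac, 10 of Lyz2 and Csf1r, 30 of Cd74, 50 of Alb, Apoa1 and Ttr, or 20 of Dcn, Col1a1, Col3a1, Lrat and Ecm1. The Trac limit was reached by 0 and 1 members of the CCl4 mice, against 5 and 3 of the corn oil mice. Cells close to the threshold of the rule differed between the groups. Of the members with only 2 or 3 receptor UMIs, 70.0% of 10 CCl4 cells and 12.5% of 8 corn oil cells had Lyz2, a lysozyme gene of myeloid cells, while Nkg7 was found in 40.0% of these CCl4 cells and 87.5% of these corn oil cells. Just outside, among cells with 1 receptor UMI, 2.08% of 48 CCl4 cells and 18.2% of 11 corn oil cells had Nkg7.

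NK and ILC1 cells were rare in both groups. They were 0.342% and 0.445% of the cells in the CCl4 mice, against 0.394% and 0.469% in the corn oil mice, or 0.393% ± 0.073 and 0.432% ± 0.053 (SD, n = 2 each; exact two-sided permutation test, p = 0.667, where 0.333 is the smallest p that 2 against 2 mice can give). The values of the groups overlapped. T cells, by contrast, averaged 0.598% after CCl4 and 1.37% after corn oil, without overlap (exact p = 0.333). Among members and gated T cells together, members were 38.9% and 40.3% in the CCl4 mice, against 25.5% and 22.8% in the corn oil mice (exact p = 0.333). T cells were gated at 2 or more Cd3 UMIs and at most 1 receptor UMI. Cells with at least 2 receptor UMIs and more than 1 Cd3 UMI were thus in neither class. They numbered 7 and 27 in the CCl4 mice, against 116 and 129 in the corn oil mice. The share depends on which cells form the denominator: of the cells with under 0.3% endothelial UMIs, members were 0.866% after CCl4 and 3.01% after corn oil.

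**Figure D1:**
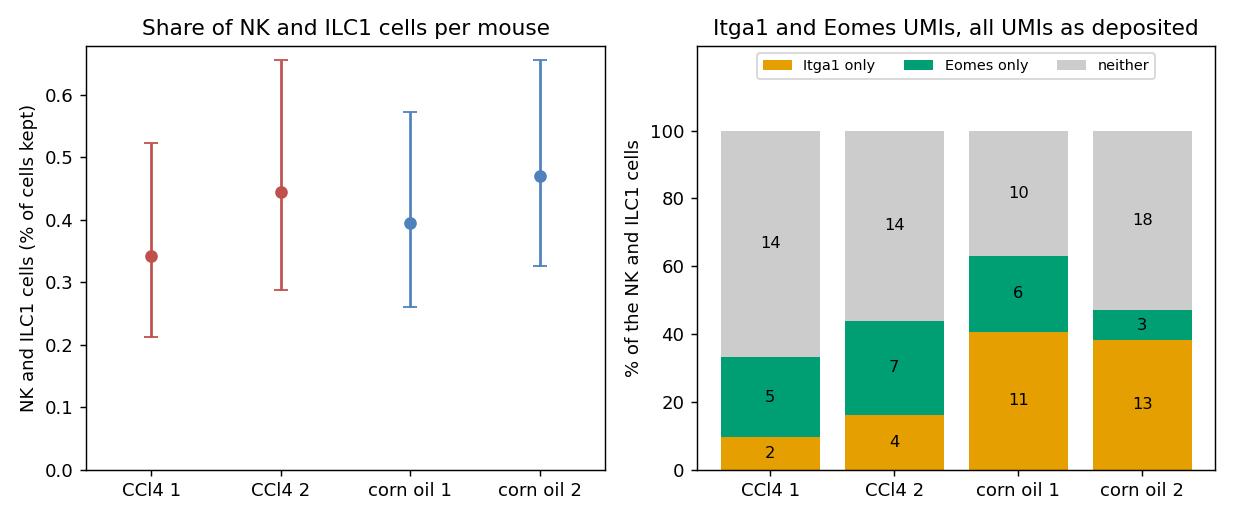
Left, NK and ILC1 cells as a percentage of the kept cells of each mouse, with exact Clopper-Pearson 95% intervals that cover counting error only; right, members with UMIs of Itga1 only, Eomes only or neither, as a percentage of the members of each mouse, with cell numbers in the bars. The 4 intervals on the left overlap, and on the right the Itga1-only parts hold 2 and 4 cells in the CCl4 mice against 11 and 13 cells in the corn oil mice.

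Itga1 (GRCm38 chr13:114953096-115101964, minus strand) and Eomes (chr9:118478212-118486132, plus strand) divided the members without a single overlap. At the deposited depth, 30 members had Itga1 UMIs and no Eomes UMI, 21 had Eomes and no Itga1, none had both, and 56 had neither. The Itga1-only cells were 2 in CCl4 1 and 4 in CCl4 2, against 11 in corn oil 1 and 13 in corn oil 2. The Eomes-only cells were 5 and 7 in the CCl4 mice, against 6 and 3 in the corn oil mice. A cell in the third class may still transcribe either gene, since few UMIs were counted per cell. No cell with UMIs of both was found, which at 3 counts of 107 cells allows a share of such cells of up to 2.80%. That limit concerns cells with UMIs of both genes at this depth, not cells that express both. Leaving Eomes out of the rule changed none of the shares given below.

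Itga1 was detected in a smaller share of members in both CCl4 mice. Members of the CCl4 mice had more UMIs per cell, so each cell was thinned to 1500 UMIs, although members had been chosen at the deposited depth. Itga1 was then found in 2 of 21 and 1 of 25 members in the CCl4 mice, against 9 of 27 and 12 of 34 in the corn oil mice. The means were 6.76% ± 3.9 and 34.3% ± 1.4 (SD, n = 2 each; exact p = 0.333), and the groups did not overlap. Without members that held RNA of other cells the means were 5.96% after CCl4 and 29.3% after corn oil. Eomes was found in 2 of 21 and 5 of 25 thinned members in the CCl4 mice, against 5 of 27 and 2 of 34 in the corn oil mice, and here the groups overlapped. As a gate gene it was given no test. Itga1 is also an endothelial gene, so the share in cells that should lack it is the background for these values. Thinned B cells had an Itga1 UMI in 3.85% after CCl4 and 10.6% after corn oil, and Kupffer cells had one in 8.92% after CCl4 and 6.07% after corn oil. The mean Itga1 share of members after CCl4 thus lay above that of B cells and below that of Kupffer cells, whereas after corn oil it was above both. The 6 endothelial genes took 0.0172% and 0.0155% of members' UMIs in the CCl4 mice, against 0.0430% and 0.0396% in the corn oil mice. The part of such RNA in the Itga1 shares was not tested. Thinned plasmacytoid dendritic cells had an Itga1 UMI in 4.26% after CCl4 and 3.92% after corn oil. T cells, some of which carry CD49a, had 2.86% after CCl4 and 17.0% after corn oil. Eomes was found in no thinned B or Kupffer cell.

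Some genes outside the rule went with this division of cells. Cxcr6, the receptor that holds lymphocytes in liver sinusoids, was found in 2 of 2 and 2 of 4 Itga1-only cells of the CCl4 mice and in 8 of 11 and 6 of 13 of the corn oil mice, 18 of 30 in all, and in 0 of 21 Eomes-only cells. Itgam, which encodes the CD11b integrin of mature NK cells, was found in 0 of 30 Itga1-only cells, against 1 of 5, 3 of 7, 6 of 6 and 2 of 3 Eomes-only cells of CCl4 1, CCl4 2, corn oil 1 and corn oil 2. Cxcr6 and Itgam were thus each found on 1 side of the division only, in subsets that held as few as 2 cells per mouse. Other genes did not divide the cells so in CCl4 1, where Klra4 was found in 0 of 5 and Il7r in 2 of 5 Eomes-only cells. Against a floor of 3 UMIs over the Eomes-only cells, Cxcr6 was at least 8.05-fold higher in Itga1-only cells, and Itgam, by the same floor over the Itga1-only cells, was at least 7.34-fold lower in them. Leaving out 1 mouse at a time, these bounds ranged from 5.09 (without CCl4 1) to 6.33 for Cxcr6 and from 3.67 (without corn oil 1) to 8.52 for Itgam, which stood at 4.78 without corn oil 2. Bounds of this kind, here and below, come from UMIs pooled over mice. They do not cover the counting error of the larger count or the spread between cells or mice. Over all 107 members, Cxcr6 and Eomes were never found in the same cell (42 cells with Cxcr6, 21 with Eomes). Trac, a T cell receptor gene, was found in 0 of 6 Itga1-only cells of the CCl4 mice and 4 of 24 of the corn oil mice. It was found in 0 of 21 Eomes-only cells. T cell genes took 0.196% of the UMIs of Itga1-only cells and 0.0822% of those of Eomes-only cells. The comparison of genes between the subsets was not repeated without the cells that held Trac.

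**Figure D2:**
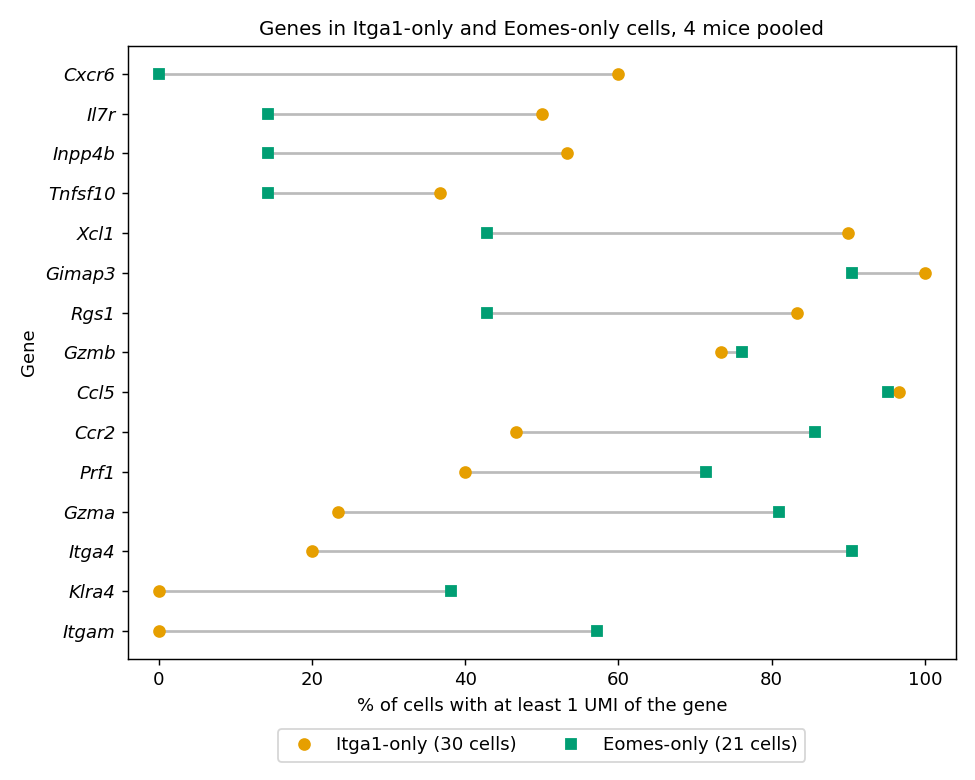
Percentage of cells with at least 1 UMI of each gene among the 30 Itga1-only cells (circles) and the 21 Eomes-only cells (squares), with the 4 mice pooled and cells at their deposited depth. Cxcr6 lies at 60.0% against 0% and Itgam at 0% against 57.1%, while Gzmb and Ccl5 lie close together.

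A fit across genes with the mouse as a block (edgeR quasi-likelihood test, Benjamini-Hochberg adjusted p under 0.05) called 17 of 666 genes tested, which is 2.55%, with 9 higher (1.35%) and 8 lower (1.2%) in Itga1-only cells. Subsets of as few as 2 cells entered it, a minimum lowered after the data had been seen. The median log2 fold change over all genes tested was 0.05. Among 22 conventional NK genes, 9 were tested, 4 were called lower and none higher, with a median log2 fold change of -2.40. Of 21 ILC1 genes, 4 were tested and 1, Xcl1, was called higher, with a median of 1.95. The lists are textbook genes of these cells and were chosen with results of these data known, so that their direction is not independent evidence.

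The genes called lower in Itga1-only cells included Gzma, Prf1, Itga4, Ccr2, Irf8, Klra4 and H2afz. Gzma, a granule protease, had 0, 0, 38 and 122 UMIs in Itga1-only cells of CCl4 1, CCl4 2, corn oil 1 and corn oil 2, against 99, 186, 165 and 159 UMIs in Eomes-only cells. Its log2 fold change was -3.47 (SE 0.44, adjusted p = 9.77e-05). It was found in 3 of 5, 5 of 7, 6 of 6 and 3 of 3 Eomes-only cells, and in the CCl4 mice no Itga1-only cell had any. Single cells held much of some sums: 1 Eomes-only cell had 84 of the 99 UMIs in CCl4 1 and another 127 of the 159 UMIs in corn oil 2. Prf1, the pore-forming perforin, had 1, 1, 3 and 9 UMIs in Itga1-only cells and 4, 13, 13 and 10 in Eomes-only cells, with a log2 fold change of -2.40 (SE 0.63, adjusted p = 0.0474). Itga4, the integrin chain of VLA-4, was found in 6 of 30 Itga1-only and 19 of 21 Eomes-only cells (log2 fold change -2.86, SE 0.62, adjusted p = 0.0146). Ccr2, a chemokine receptor, and Irf8, an interferon regulatory factor, were called lower by 1.53 and 1.77 on the log2 scale. Ccr2 is also on the monocyte and macrophage list. The genes of that list took 0.506% of all UMIs of Eomes-only cells and 0.174% of those of Itga1-only cells, with medians per cell of 0.197% and 0.0856%. A single Eomes-only cell of CCl4 1 held 164 Lyz2 UMIs, and the part of this RNA in the calls was not tested. Klra4, a receptor of the Ly49 family, had no UMI in Itga1-only cells and was found in 0 of 5, 5 of 7, 1 of 6 and 2 of 3 Eomes-only cells of CCl4 1, CCl4 2, corn oil 1 and corn oil 2, which makes it at least 20.1-fold lower. CCl4 2 held 33 of the 52 UMIs, and the bound was 8.23 without that mouse, 11.2 without corn oil 2 and 29.5 without CCl4 1. Ly49 genes are close copies of each other, so reads may have been split among them. H2afz, a histone variant gene, had a log2 fold change of -1.52.

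Among the genes higher in Itga1-only cells were Xcl1, Rgs1 and Gimap3. Xcl1, the chemokine that attracts cross-presenting dendritic cells, had 8, 43, 23 and 71 UMIs in Itga1-only cells of CCl4 1, CCl4 2, corn oil 1 and corn oil 2, and 3, 17, 5 and 6 UMIs in Eomes-only cells. Its log2 fold change was 1.76 (SE 0.39, adjusted p = 0.0146), and it was found in 27 of 30 and 9 of 21 cells. Rgs1, which dampens chemokine receptor signalling in tissue-resident lymphocytes, was found in 25 of 30 and 9 of 21 cells (log2 fold change 2.21, SE 0.46, adjusted p = 0.0120). Gimap3, a GTPase gene of lymphocyte survival, reached a log2 fold change of 1.62 (SE 0.32, adjusted p = 0.00762). The transcription factor gene Maf and the phosphatase gene Dusp1 were also called, at 2.35 and 1.69. The other 4 called genes, Ctsb, App, Ftl1 and Ifitm3, had higher levels in other liver cells than in members. Ctsb, for example, stood at 10940 unscaled CPM in Kupffer cells, and 9 of 9 endothelial markers with at least 5 UMIs were higher in Itga1-only cells. Endothelial markers took 0.216% of all UMIs of Itga1-only cells and 0.0422% of those of Eomes-only cells, and the part of this RNA in the 4 calls was not tested. Across the alternative settings of this fit, Gzma and Rgs1 passed in 7 of 9, Gimap3 in 5 and Xcl1 in 4, and of 8 settings Klra4 passed in 5, Itga4 in 4 and Prf1 in 2.

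Other effector and ILC1 genes did not pass the test. Gzmb was found in 22 of 30 Itga1-only cells and 16 of 21 Eomes-only cells (log2 fold change -0.20, SE 0.33, adjusted p = 0.933), and Ccl5 in 29 and 20 (log2 fold change -0.91, SE 0.29, adjusted p = 0.149). Il7r, found in 15 of 30 Itga1-only and 3 of 21 Eomes-only cells, had a wide error (log2 fold change 2.13, SE 0.90, adjusted p = 0.365). Inpp4b, an ILC1 gene for a phosphoinositide phosphatase, was found in 16 Itga1-only and 3 Eomes-only cells (log2 fold change 2.78, SE 1.10, adjusted p = 0.305). Tnfsf10 was found in 11 Itga1-only and 3 Eomes-only cells, and Itgam in 0 and 12. Tnfsf10 and Itgam were too sparse to enter the fit. Taking every listed gene with at least 5 UMIs in the pooled subsets, 16 of 17 ILC1 genes had a higher level in Itga1-only cells (94.1%), as did 3 of 21 conventional NK genes (14.3%), against 51.4% of 5933 genes in all. These percentages pool mice and carry no test.

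Counts of cell cycle UMIs per cell differed between the subsets, with medians of 4 in Itga1-only cells, 9 in Eomes-only cells and 5.5 in cells with neither gene. At least 10 UMIs over the cell cycle genes were found in 2 of 30 Itga1-only cells, 10 of 21 Eomes-only cells and 7 of 56 cells with neither gene, and this was not tested. The 10 Eomes-only cells were 8 of 12 in the CCl4 mice and 2 of 9 in the corn oil mice. Per library, 7 and 9 members passed that mark in the CCl4 mice, against 2 and 1 in the corn oil mice. Members of the CCl4 mice also had more UMIs per cell, whose part in this was not tested. Of the 934 cell cycle UMIs of CCl4 1, 1 cell with neither gene held 283 and 1 Eomes-only cell held 271. Mki67 was found in 3 and Top2a in 5 of the 21 Eomes-only cells, against 1 and 0 of the 30 Itga1-only cells. As a share of all UMIs the cell cycle genes took 0.728% and 0.185% in the CCl4 mice, against 0.209% and 0.160% in the corn oil mice, so the groups overlapped. None of the 5 cell cycle genes that could be tested between treatments was called by edgeR, and 1 of the 5 had an unadjusted p under 0.05, close to the 17.7% of all 2241 genes tested.

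The next comparison asked which genes differed within NK and ILC1 cells between CCl4 and corn oil. UMIs were summed over the members of each mouse, which gave 128248 and 116138 UMIs in the CCl4 mice, against 72172 and 93425 in the corn oil mice. Levels below are in CPM, the usual depth-scaled unit of UMI counts, scaled by the trimmed mean of M-values over the tested genes. Outside the gate genes, edgeR called 79 of 2241 genes (3.53%), with 64 higher after CCl4 (2.86%) and 15 lower (0.669%). The median log2 fold change of all genes tested was 0.03. Without the members that held RNA of other cells, 4 of 1645 genes were called (0.243%), 2 higher (0.122%) and 2 lower (0.122%), and 3 of these were among the 79. The fourth was Ccl1, a chemokine gene found in 1 cell of each CCl4 mouse. Leaving out corn oil 2 left 1 call, Lyz2, and leaving out CCl4 2 gave 152, in fits where the lone mouse of a group is assumed to vary like the others. Thinning each member to 1500 UMIs left 690 genes to test, of which 47 were called (6.81%), 25 higher (3.62%) and 22 lower (3.19%). In sums over cells, fewer cells with a transcript and less of it per cell cannot be told apart. Cell counts are given below for some of the genes only.

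Gzma, Ccl4 and Nkg7, effector genes of cytotoxic lymphocytes, were lower after CCl4. Gzma had 1163 and 2275 CPM in the CCl4 mice, against 4486 and 6306 CPM in the corn oil mice, and was found in 6 and 6 members of the CCl4 mice and 11 and 17 of the corn oil mice. It fell by 1.66 on the log2 scale (SE 0.32, adjusted p = 0.0282), with a single cell holding 75.0% of its UMIs in CCl4 1. Without members holding RNA of other cells the log2 fold change of Gzma was -1.42 (adjusted p = 0.0828). The chemokine gene Ccl4, whose product attracts immune cells, had 509 and 586 CPM in the CCl4 mice and 1244 and 1705 CPM in the corn oil mice. It fell by 1.44 on the log2 scale (SE 0.25, adjusted p = 0.0196), and by 1.47 without RNA of other cells (adjusted p = 0.0390). Nkg7, a granule membrane protein that promotes degranulation, had 883 and 1138 CPM in the CCl4 mice and 2191 and 1935 CPM in the corn oil mice, a log2 fold change of -1.03 (SE 0.21, adjusted p = 0.0379; -0.78 and adjusted p = 0.205 without RNA of other cells). For all 3 genes both CCl4 mice lay below both corn oil mice, as they did for 23.7% of all genes tested, while both lay above for 24.3%.

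**Figure D3:**
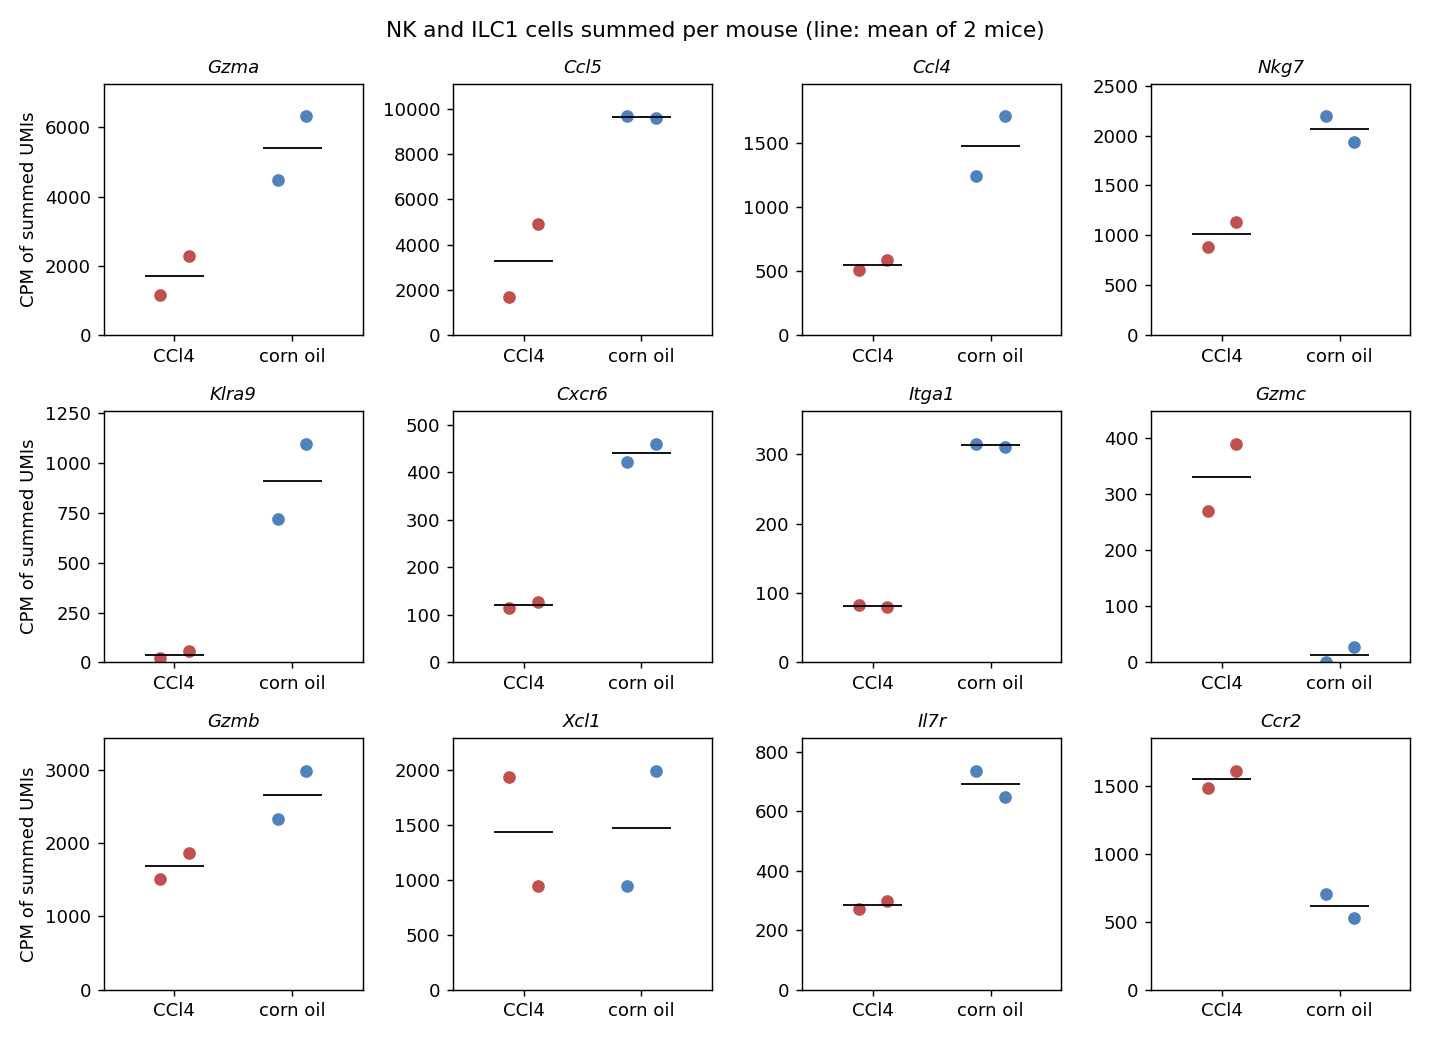
Level of 12 genes in NK and ILC1 cells summed per mouse, in CPM scaled over the tested genes, for the 2 CCl4 mice (left in each panel) and the 2 corn oil mice (right), with lines at the means. Klra9 lies at 20.8 and 57.5 CPM after CCl4 against 719 and 1096 CPM after corn oil, whereas the points of Xcl1 overlap between the groups.

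Other granule and chemokine genes did not pass the test. Ccl5 had 1704 and 4895 CPM in the CCl4 mice, against 9656 and 9568 CPM in the corn oil mice (log2 fold change -1.55, SE 0.40, adjusted p = 0.0906), although it passed when every member was thinned to 1500 UMIs (adjusted p = 5.97e-04). Prf1 had 135 and 184 CPM in the CCl4 mice, against 333 and 365 CPM in the corn oil mice (log2 fold change -1.13, SE 0.36, adjusted p = 0.147). Both genes lay lower in both CCl4 mice without passing. Gzmb had 1517 and 1873 CPM in the CCl4 mice, against 2331 and 2991 CPM in the corn oil mice (log2 fold change -0.66, SE 0.21, adjusted p = 0.156). Xcl1 had 1932 and 942 CPM in the CCl4 mice and 946 and 1989 CPM in the corn oil mice, so the groups overlapped (log2 fold change -0.04, SE 0.40, adjusted p = 0.975). Of 14 cytotoxic granule genes tested, Gzmc and Lamp1 were called higher and Gzma and Nkg7 lower, where 3.53% of all 2241 genes were called.

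Gzmc went against Gzma. This granzyme gene, found in activated NK cells and in some ILC1, had 26 and 34 UMIs in 7 and 4 members of the CCl4 mice, against 0 and 2 UMIs in 0 and 2 members of the corn oil mice. Per UMI sequenced it was 20.3-fold higher after CCl4, with a counting interval of 5.39 to 172 (95%, exact), and the fit gave an adjusted p of 0.0196. That interval pools the mice of each group and covers counting error only, not the spread between cells or mice. Gzmc was also called without RNA of other cells (adjusted p = 0.0142). Kit, a receptor tyrosine kinase gene of some innate lymphocytes, had 15 and 19 UMIs in 8 and 9 members of the CCl4 mice and 1 and 2 UMIs in 1 and 1 members of the corn oil mice (log2 fold change 2.94, SE 0.60, adjusted p = 0.0350; 2.97 and adjusted p = 0.112 without RNA of other cells).

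3 of the 17 ILC1 genes tested were also called lower after CCl4, and 1, Gzmc, was called higher. Cxcr6 had 114 and 126 CPM in the CCl4 mice, against 421 and 460 CPM in the corn oil mice, and was found in 8 and 5 members of the CCl4 mice and 14 and 15 of the corn oil mice. Its log2 fold change was -1.86 (SE 0.34, adjusted p = 0.0245), and -1.21 (adjusted p = 0.256) without RNA of other cells. Itga1 had 83.1 and 80.4 CPM in the CCl4 mice, against 315 and 311 CPM in the corn oil mice (log2 fold change -1.92, SE 0.40, adjusted p = 0.0420; -1.92 and adjusted p = 0.163 without RNA of other cells). Il7r had 270 and 299 CPM in the CCl4 mice, against 736 and 650 CPM in the corn oil mice, and fell by 1.28 on the log2 scale (SE 0.27, adjusted p = 0.0420; -0.49 and adjusted p = 0.589 without RNA of other cells). The share of members with Il7r overlapped between the groups, at 52.4% and 40.0% in the CCl4 mice, against 44.4% and 47.1% in the corn oil mice. Over all genes tested 3.53% were called, and the median of the ILC1 list was -0.04. Its 22 genes took 0.410% and 0.342% of members' UMIs in the CCl4 mice, against 0.382% and 0.489% in the corn oil mice, which overlap. With mice pooled, cells with neither Itga1 nor Eomes had 0.4615% after CCl4 and 0.4817% after corn oil. Itga1-only cells had 0.4556% and 0.5139%, and Eomes-only cells 0.1545% and 0.1248%. These shares were not tested. Thinned to 1500 UMIs, Cxcr6 was found in 2 of 21 and 3 of 25 members in the CCl4 mice, against 9 of 27 and 11 of 34 in the corn oil mice, without overlap. At that depth Il7r was found in 5 of 21 and 8 of 25 members, against 8 of 27 and 13 of 34, and here the groups overlapped.

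Of the conventional NK genes, 1 of 12 tested was called, and it was Klra9. This Ly49 gene had 20.8 and 57.5 CPM in the CCl4 mice, against 719 and 1096 CPM in the corn oil mice, and was found in 1 and 1 members of the CCl4 mice and 8 and 14 of the corn oil mice. It fell by 4.52 on the log2 scale (SE 0.46, adjusted p = 0.00639), and by as much without RNA of other cells (adjusted p = 0.0115). It was the called gene among 21 NK lectin and immunoglobulin receptor genes tested, of which Cd7, Fcer1g and Tyrobp had the highest levels. Over all genes tested 3.53% were called, which is the background for both lists. As for Klra4, reads may have been split among Ly49 copies, and these genes differ between mouse strains and are expressed by subsets of NK cells in a variegated way.

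Within Eomes-only cells, too, the Gzma level summed over cells was lower in both CCl4 mice than in both corn oil mice. In unscaled CPM over all UMIs of those cells, Gzma had 2740 and 6225 in the CCl4 mice, against 10662 and 18577 in the corn oil mice. Within Itga1-only cells it was 0 and 0 in the CCl4 mice, against 1274 and 3413 in the corn oil mice. The groups did not overlap in either subset in CPM, but the values rest on 3 to 7 and on 2 to 13 cells per mouse and were not tested. The median of Gzma UMIs per Eomes-only cell was 6 and 25 in the CCl4 mice and 25 and 22 in the corn oil mice, which overlap. The Gzma CPM of CCl4 1 and corn oil 2 came mostly from the single cells named above. Ccl4 overlapped in Eomes-only cells, at 111 and 870 unscaled CPM in the CCl4 mice, against 1745 and 234 in the corn oil mice. Nkg7 lay lower there in both CCl4 mice, and both genes did so in Itga1-only cells. In cells with neither Itga1 nor Eomes, Ccl4 and Nkg7 overlapped between the groups.

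Among the 64 genes higher after CCl4 were 10 of the 11 tested genes on the monocyte and macrophage list, the RNA described above as another cell type's. Of all 2241 genes tested, 2.86% were called higher. The 10 that met the naming rule with the largest fold changes included Thbs1, Chil3, Il1b, F13a1, C5ar1, Capg, Marcksl1, Clec4a1 and Gda, all of these without a UMI in corn oil members. Thbs1, for thrombospondin 1, had 48 and 66 UMIs in 5 and 4 members of the CCl4 mice and 0 and 0 in the corn oil mice, at least 25.7-fold higher against a floor of 3 UMIs over the corn oil group. With only 1 corn oil mouse left that bound was 14.5 (without corn oil 1) or 11.2 (without corn oil 2). Lyz2 had 367 and 351 UMIs in 6 and 10 members of the CCl4 mice, against 13 and 3 UMIs in 3 and 3 members of the corn oil mice. Once members with RNA of other cells were left out, Il1b did not pass (adjusted p = 0.0828) and the other genes named here were too sparse to be tested. Ccr2 is shared by monocytes and NK cells. It had 1485 and 1609 CPM in 16 and 19 members of the CCl4 mice, against 701 and 528 CPM in 15 and 15 members of the corn oil mice (log2 fold change 1.34, SE 0.23, adjusted p = 0.0196; 0.91 and adjusted p = 0.201 without RNA of other cells).

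The remaining genes called lower included regulators of signalling and transcription. The mitogen-activated kinase phosphatase Dusp2 had 571 and 747 CPM in the CCl4 mice and 2471 and 2260 CPM in the corn oil mice (log2 fold change -1.84, SE 0.22, adjusted p = 0.00799). Txk, a Tec family kinase of T and NK cells, Junb, an AP-1 subunit, Zfp36l2, an RNA-binding protein, Peli1, a ubiquitin ligase, and Socs2, an inhibitor of cytokine signalling, fell by 1.69, 1.04, 1.17, 1.41 and 2.16 on the log2 scale, and Pcmtd1 and Arid4b by 2.13 and 1.63. Among 27 immediate early and dissociation stress genes tested, Zfp36 was called higher and Dusp2 and Junb lower. Over all genes tested 3.53% were called, which is the background for each list in this paragraph. No gene was called by edgeR among 21 lymphoid transcription factors, 9 of which had an unadjusted p under 0.05, as did 397 of all 2241 genes tested (17.7%). Of the 21 factors, Id2, Klf6 and Ets1 had the highest levels. Id2, the factor that all innate lymphoid cells need, had 1839 and 1873 CPM in the CCl4 mice, against 2383 and 2301 CPM in the corn oil mice (log2 fold change -0.33, SE 0.18, adjusted p = 0.370). Ets1 had 499 and 712 CPM in the CCl4 mice, against 1174 and 1462 CPM in the corn oil mice (log2 fold change -1.13, SE 0.26, adjusted p = 0.0564). Of 7 interferon-stimulated genes edgeR called none, with 3 at an unadjusted p under 0.05, against 17.7% of all genes tested. Among 12 cytokine receptors Il7r alone was called, and the receptor with the highest level, Il2rb, had 2389 and 3310 CPM in the CCl4 mice, against 4153 and 4222 CPM in the corn oil mice (log2 fold change -0.56, SE 0.20, adjusted p = 0.200).

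**Figure D4:**
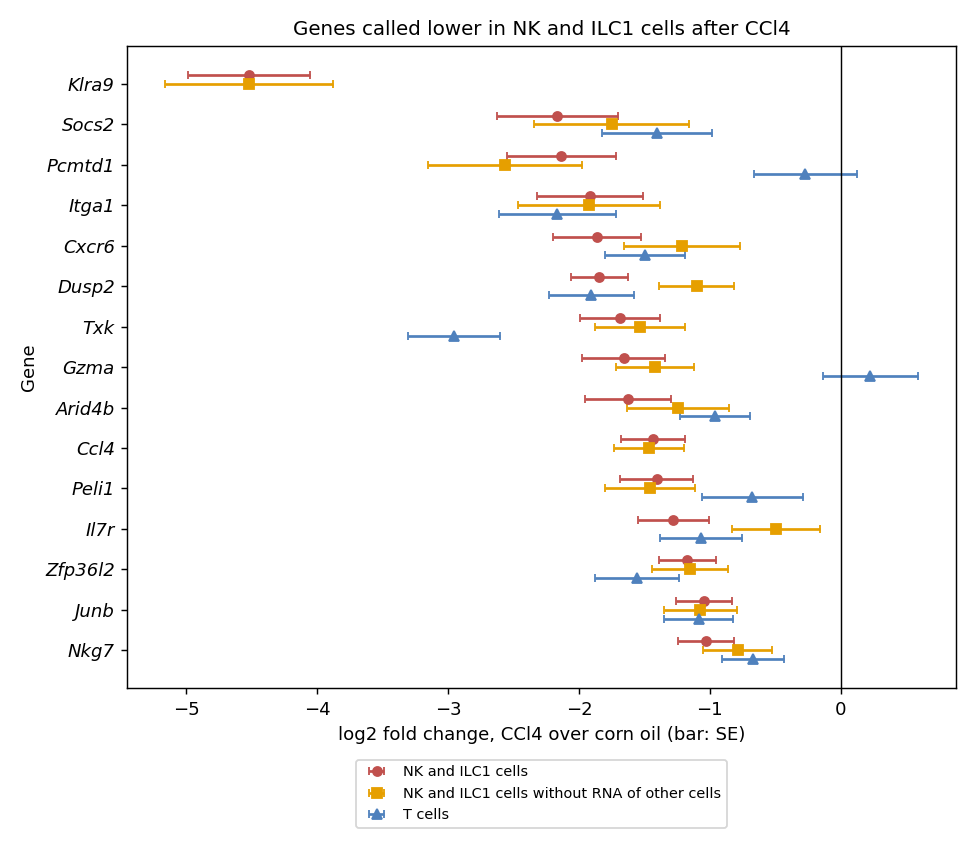
Log2 fold change, CCl4 over corn oil, of the 15 genes called lower in NK and ILC1 cells (circles), with the same genes in members without RNA of other cells (squares) and in T cells (triangles); bars are standard errors. Klra9 and Ccl4 have no T cell value, and Gzma lies at -1.66 in NK and ILC1 cells against 0.23 in T cells.

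How firmly these calls stood can be read from the alternative settings, which kept the sign of each gene named here. Removing the 5% highest doublet scores took out no member, so that setting repeated the main fit and adds no support to the counts below. Klra9 passed in 11 of 13 alternatives (adjusted p from 1.78e-21 to 0.114), Ccl4 in 10 (3.57e-06 to 0.211), Dusp2 in 10 (7.81e-12 to 0.130), Gzma in 9 (3.83e-14 to 0.239), Ccr2 in 9 (5.95e-04 to 0.231) and Gzmc in 9 of 12 (8.27e-07 to 0.116). Cxcr6 passed in 7 of 13 (5.45e-04 to 0.515), Ccl5 in 6 (1.60e-15 to 1.00), Nkg7 in 5 (4.67e-04 to 0.325), Itga1 in 5 (0.00459 to 0.869), Il7r in 4 (0.00459 to 0.845), and of 12 alternatives Kit passed in 4 (0.0168 to 0.644) and Il1b in 8 (3.26e-08 to 0.124). Of 13 alternatives each, Cxcr6, Itga1 and Il7r thus passed in fewer than Klra9, Ccl4 and Gzma did.

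The gate genes, given without a test, had the following levels. Klrb1c had 519 and 770 CPM in the CCl4 mice, against 1507 and 1583 CPM in the corn oil mice. Ncr1 had 603 and 483 CPM in the CCl4 mice, against 789 and 907 CPM in the corn oil mice. Both genes lay lower in both CCl4 mice. Klre1 had 457 and 1011 CPM in the CCl4 mice, against 789 and 1123 CPM in the corn oil mice, and Eomes had 62.3 and 253 CPM in the CCl4 mice, against 333 and 94.7 CPM in the corn oil mice, so for these the groups overlapped. Klra8 was found in 2 and 4 members of the CCl4 mice and in 4 and 4 of the corn oil mice.

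Several of the genes lower in NK and ILC1 cells had fold changes of the same sign in the 264 T cells. In T cells the fit called 0 of 4831 genes (0%), with 507 at an unadjusted p under 0.05. A direct test of the difference between the CCl4 effects in NK and ILC1 cells and in T cells called 0 of 4125 genes (0%), with 174 at an unadjusted p under 0.05 and 0 by DESeq2. Gzma differed by -2.04 on the log2 scale (SE 0.45, adjusted p = 0.322), with a T cell level of 163 and 188 CPM in the CCl4 mice, against 197 and 103 CPM in the corn oil mice. Dusp2 had log2 fold changes of -1.84 in NK and ILC1 cells and -1.90 in T cells, Cxcr6 of -1.86 and -1.49, and Itga1 of -1.92 and -2.16. No gene was thus shown to respond differently in the 2 populations, and the T cell values did not pass a test of their own.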

How the data were processed

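The data are single-cell profiles from livers of 2 CCl4 and 2 corn oil mice. Per the file headers, the deposited values are UMI counts per cell and gene, made by the authors with the BD WTA Rhapsody Analysis Pipeline 1.9.1 on GRCm38 with GENCODE vM19. No header or label used here names an aligner. The tables held 27091 cells that the pipeline had called, with the smallest at 2785 and 2702 UMIs in the CCl4 mice and at 1949 and 1604 UMIs in the corn oil mice. Total depth was 55529871 and 45408857 UMIs in the CCl4 mice and 50422053 and 51752732 UMIs in the corn oil mice.

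Members were chosen by the UMI thresholds given in the report, and T cells had at least 2 Cd3 UMIs with at most 1 UMI of the member genes. No clustering was used. Doublets were scored in the manner of Scrublet, and no member was among the 5% highest scores. Sums of UMIs over the cells of a mouse were tested with edgeR 4.0.16 (quasi-likelihood, TMM, filterByExpr, Benjamini-Hochberg adjusted p under 0.05) in R 4.3.3 with limma 3.58.1, checked on simulated data. DESeq2 1.42.0, leaving out each mouse and other gates were alternatives. Shares were compared by exact two-sided permutation over the mice, with Clopper-Pearson 95% intervals that cover counting error only. Python 3.11.15, numpy 2.4.6, scipy 1.17.1, pandas 2.3.3 and matplotlib 3.10.9 were used.

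Named genes are the gate and marker genes, the 10 called genes per direction with the largest fold changes (at least 50 CPM, and at least 10% of the level in every other class), and the called genes of each list or its highest 2 to 4. Kit, Itgam, Tnfsf10 and other genes outside this rule were chosen after their values were seen. Members, lists and this rule were chosen with earlier results of these data known. The fit of Itga1-only against Eomes-only cells was planned with at least 10 cells per subset and mouse, which was not met, and was made with at least 2. Promoters are from RefSeq. Some genes called by these fits are not reported here.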

Additional observations from a re-analysis of the deposited data

How the results depend on the processing

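The 79 genes called between CCl4 and corn oil moved with most settings. Removing the 5% highest doublet scores took out no member, so that setting repeated the main fit and could lose no call. DESeq2 called 38, no filter on low counts 205, an endothelial limit of 1% of UMIs 46, at least 3 receptor UMIs 26, members thinned to 1500 UMIs 47 and members without RNA of other cells 4. Leaving out 1 mouse gave 1 call (without corn oil 2, Lyz2) to 152 (without CCl4 2). With the replicate number as a block (replicate block), edgeR called 0 genes, with 347 at an unadjusted p under 0.05; same-numbered mice correlated at -0.0139 in their deviations over 2248 genes, so the numbers were not taken to pair the mice. For the 20 genes named there, 142 values under alternatives kept their call and 88 lost it in the same direction. For Itga1-only against Eomes-only cells (17 calls), DESeq2 called 1, no filter 7, no library block 2 and thinned cells 2, and leaving out 1 mouse gave 7 to 30. For the difference from T cells (0 calls), no filter gave 26, members without RNA of other cells 1, and leaving out 1 mouse 4 to 20. The share of members, CCl4 minus corn oil, was -0.038 percentage points. It was 0.291 with at least 1 receptor UMI, 0.00691 with the 1% endothelial limit and -0.198 with every cell thinned before the gates. Among cells under 0.3% endothelial UMIs it was -2.14, and among members with gated T and B cells it was 12.1. Leaving out 1 mouse gave -0.0896 to 0.0132. The Itga1 share differed by -27.6 percentage points, by -34.5 with under 0.1% endothelial UMIs, by -23.3 without RNA of other cells and by -30.3 to -24.8 leaving out 1 mouse. The Eomes share differed by -3.76 to 8.88 leaving out 1 mouse. Causes were not tested. With 21 to 34 members per mouse, genes found in a few cells are at the limit of these data.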
